A study of Saccharomyces cerevisiae with 2 samples.

Results

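The 10 nuclear genes for asparagine tRNA, tN(GUU), were examined in small RNA of S phase Saccharomyces cerevisiae cells. They were taken by name from the deposited tables, which list 252 tRNA genes, 239 of them nuclear. All 10 asparagine genes that the RefSeq annotation of the R64 assembly (sacCer3) places in the nucleus had a value in both strains. Data came from 1 library of a cdk1-as1 strain and 1 library of a WT strain that carries CDK1. In cdk1-as1 the bulky gatekeeper residue of the kinase Cdk1 is exchanged for glycine, which opens the ATP pocket to an inhibitor and lowers kinase activity even when none is added. Both cultures were arrested in G1 with 15 mg/L of the pheromone α factor for 3 h and harvested in S phase after release, as judged by microscopy. The labels give release into rich medium with or without nocodazole and do not say which was used for these libraries. As each strain has a single library, no difference between the strains was tested, and all of them are differences between these 2 libraries. Fewer cells and less RNA per cell cannot be told apart in such bulk samples, and tables of tRNA genes offer no check of the CDK1 allele.

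tRNA carries an amino acid to the ribosome and reads a codon with its anticodon. The asparagine tRNA of the yeast cytosol has the anticodon GUU, reads the codons AAC and AAU, and is charged by the synthetase Ded81. Its gene is transcribed by RNA polymerase III from an A box and a B box that lie inside the gene and are bound by TFIIIC. TFIIIC places TFIIIB upstream, and the polymerase stops in a run of T after the gene. The 5′ leader and the 3′ trailer are then removed and CCA is added.

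The sequence matters here because it sets what the reads can tell apart. The 10 asparagine genes are identical over all 74 bases, have no intron and encode 1 RNA. The gene is shown 5′ to 3′ beside those of the other tRNAs whose anticodon starts with GU and that read codons with A in the middle, namely aspartate, histidine and tyrosine (RefSeq, R64). Capitals mark the anticodon, which in the asparagine gene takes bases 35 to 37 counted from the first base of the gene.
tN(GUU)L, chrXII:975983-976056, minus strand, 10 of 10 genes: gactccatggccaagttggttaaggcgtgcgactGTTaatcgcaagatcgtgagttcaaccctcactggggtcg
tD(GUC)B, chrII:405960-406031, plus strand, 15 of 15 genes: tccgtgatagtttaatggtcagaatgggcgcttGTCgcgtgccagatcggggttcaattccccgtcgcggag
tH(GUG)G1, chrVII:110625-110696, minus strand, 3 of 3 genes: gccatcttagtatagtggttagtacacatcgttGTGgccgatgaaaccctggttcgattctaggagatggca
tY(GUA)D, chrIV:946312-946400, plus strand, exons joined, 8 of 8 genes: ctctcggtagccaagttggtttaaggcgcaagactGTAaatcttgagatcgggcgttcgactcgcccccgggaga
Of a simplified A box motif, TGGCNNANN, the asparagine gene holds 1 match at bases 8 to 16, and of a B box motif, GTTCNANNC, 1 match at bases 54 to 62, with none on its other strand. Searched on both strands, the A box letters occur in 53.5% and the B box letters in 98.2% of the 275 annotated nuclear tRNA genes. The 2 motifs do not overlap in the asparagine gene.

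What tells the copies apart lies outside the gene. The first 24 bases after 9 of the genes are shown, since a precursor RNA ends there. Capitals mark the first run of 5 or more T, the kind of run in which RNA polymerase III stops.
tN(GUU)F, chrVI:137462-137485, minus strand: TTTTTTTattcaaaatcagtttct
tN(GUU)L, chrXII:975959-975982, minus strand: tttaTTTTTTTTgcattaaattat
tN(GUU)G, chrVII:731211-731234, plus strand: TTTTTTgcttgaaatgagcaacat
tN(GUU)K, chrXI:74698-74721, plus strand: cttaTTTTTaacttttttacactg
tN(GUU)N1, chrXIV:102790-102813, plus strand: tttaTTTTTTTTgtatttgtgctt
tN(GUU)N2, chrXIV:632673-632696, plus strand: TTTTTTTTcttatttcagatagtc
tN(GUU)O1, chrXV:228405-228428, plus strand: ttaTTTTTgaatacccaatacttt
tN(GUU)O2, chrXV:487513-487536, plus strand: ttaaTTTTTTaatttttctcctac
tN(GUU)P, chrXVI:810750-810773, plus strand: taTTTTTTactaaattagtttttt
All 9 hold such a run, as do 97.5% of the annotated nuclear tRNA genes in the same window. The run starts directly after the gene in tN(GUU)F, tN(GUU)G and tN(GUU)N2 and at most 4 bases later in the others. Any 2 of these windows differ at 7 to 17 positions.

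The genes are spread over 8 chromosomes, with 2 each on XIV and XV. The 2 on the minus strand are tN(GUU)F (chrVI:137486-137559) and tN(GUU)L (chrXII:975983-976056). The 8 on the plus strand are tN(GUU)C (chrIII:127716-127789), tN(GUU)G (chrVII:731137-731210), tN(GUU)K (chrXI:74624-74697), tN(GUU)N1 (chrXIV:102716-102789), tN(GUU)N2 (chrXIV:632599-632672), tN(GUU)O1 (chrXV:228331-228404), tN(GUU)O2 (chrXV:487439-487512) and tN(GUU)P (chrXVI:810676-810749). None overlaps a protein-coding gene, the nearest being between 195 nt (YVC1, beside tN(GUU)O2) and 681 nt (SAT4, beside tN(GUU)C) away. Ty retrotransposons are known to insert upstream of genes made by RNA polymerase III. A Ty element or one of its long terminal repeats lies within 1000 nt upstream of 7 of the 10 genes, at 16 nt from tN(GUU)N1 and at 202 nt or less from the other 6, against 63.3% of all annotated nuclear tRNA genes. tN(GUU)C, tN(GUU)G and tN(GUU)O2 have none there. Both minus strand genes and 5 of the 8 plus strand genes are among the 7.

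For each gene the tables give an estimated count and an FPKM value. By definition FPKM is fragments scaled to gene length and to depth. How the ERCC spike-in RNA named in the study's methods entered it is not known. The 10 genes held only 2 values in each library. tN(GUU)F and tN(GUU)L each had 40426 FPKM and 14.2 counts in cdk1-as1, against 186004 FPKM and 47.8 counts in WT. The 8 others each had 2666 FPKM and 0.169 counts in cdk1-as1, against 7461 FPKM and 1.38 counts in WT. Levels in cdk1-as1 were thus below those in WT for every copy, and the 2 genes with the high value stood far above the 8 with the low value in both strains. Among the values of nuclear tRNA genes, with copies of equal value counted once, the FPKM of tN(GUU)F and tN(GUU)L ranked 15 of 70 in cdk1-as1 and 5 of 78 in WT. That of the 8 other genes ranked 57 of 70 in cdk1-as1 and 65 of 78 in WT.

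**Figure D1:**
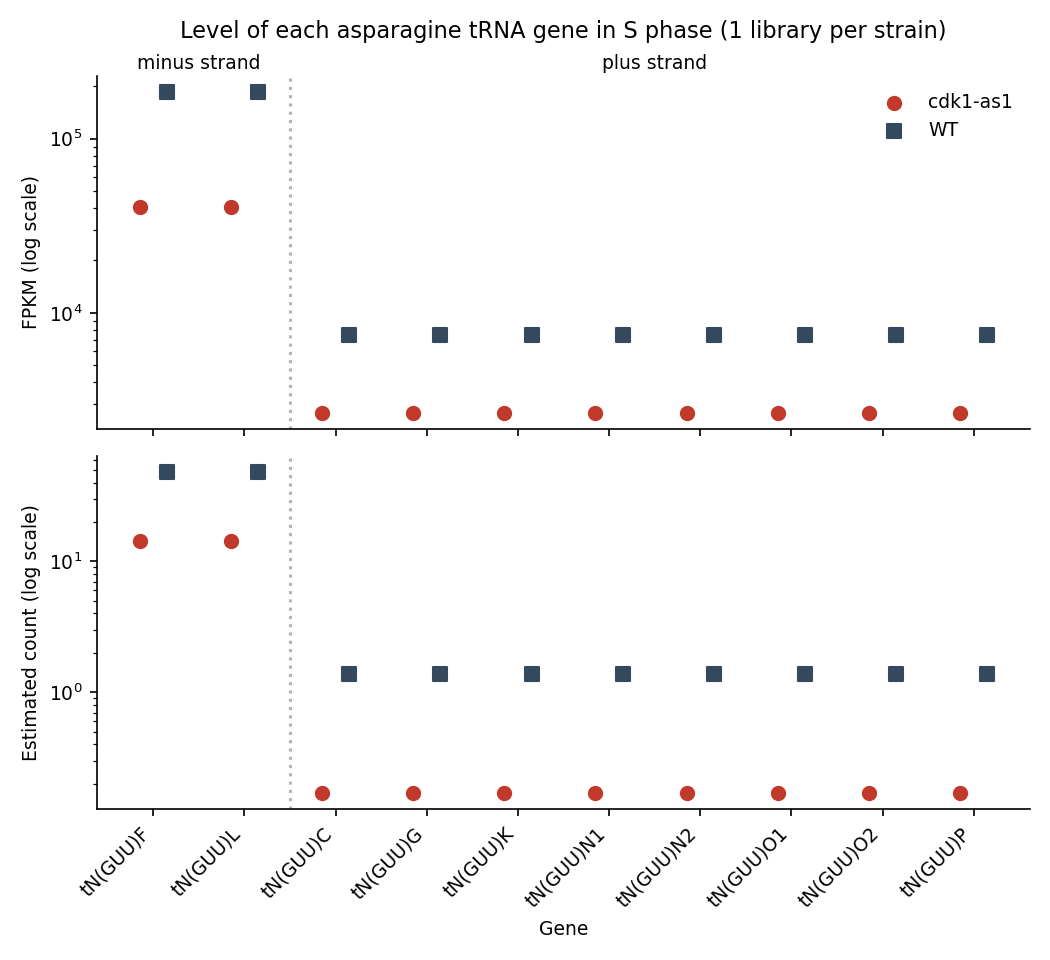
FPKM (top) and estimated counts (bottom) of the 10 asparagine tRNA genes on log axes, with circles for the cdk1-as1 library and squares for the WT library. The 2 minus strand genes share 1 value per library (40426 FPKM in cdk1-as1 and 186004 in WT) and the 8 plus strand genes another (2666 and 7461).

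The 2 values followed the strand of the genome on which the gene is written. Both minus strand genes had the high value and all 8 plus strand genes the low one. A minus strand copy had 15.2 times the FPKM of a plus strand copy in cdk1-as1 and 24.9 times in WT, or 3.92 and 4.64 on the log2 scale. In counts the gap was 84.2-fold in cdk1-as1 and 34.8-fold in WT, at 0.169 and 1.38 counts for each plus strand copy. Of the asparagine FPKM, 79.1% in cdk1-as1 and 86.2% in WT was given to the 2 minus strand genes. As the 74 bases of all copies are the same, a fragment that lies within them fits each copy alike and cannot be assigned to 1 of the genes.

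The same split was found in other families. Of 32 families of nuclear tRNA genes that are identical over the whole gene, 23 have copies on both strands, with 186 genes in all. In 22 of these 23, copies on the same strand had equal values and copies on opposite strands had unequal ones. The exception was the serine family of tS(UGA)I, in which the plus strand copies held 2 values. In the 9 families with copies on 1 strand, all copies had 1 value. The strand with the higher FPKM was not the same throughout. The minus strand copies were higher in 10 of the 18 split families with both values in cdk1-as1 and in 9 of 21 in WT. By size, the gap of the asparagine family ranked 7 of 18 in cdk1-as1 and 4 of 21 in WT, where the median gap was 2.77 and 2.66 on the log2 scale of FPKM. Over all nuclear tRNA genes, minus strand genes held 46.9% of the counts in cdk1-as1 and 55.5% in WT. Of the 229 nuclear genes besides those for asparagine, 123 are on the minus strand. The sources used here give no strand setting for the counting, and its part in the split was not tested.

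**Figure D2:**
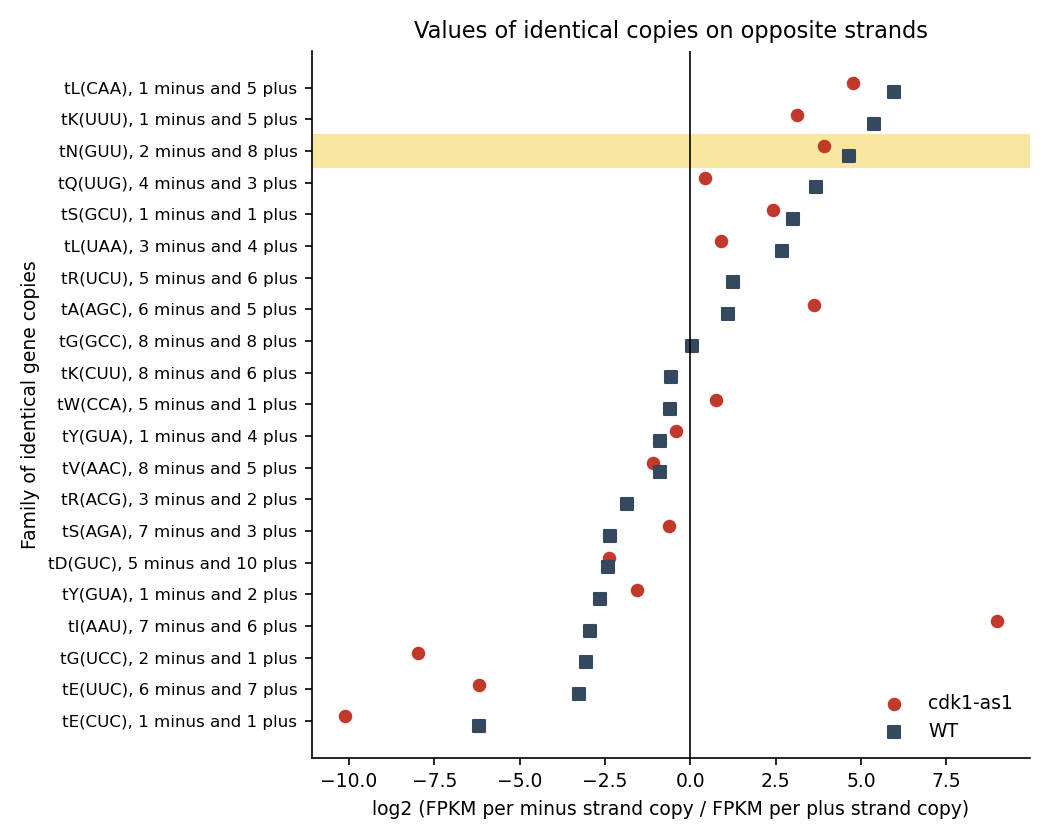
The log2 ratio of FPKM per minus strand copy to FPKM per plus strand copy, for the 21 families of identical genes with both values in WT, with circles for cdk1-as1 and squares for WT. The asparagine family, shaded, lies at 3.92 in cdk1-as1 and 4.64 in WT, and families lie on both sides of 0. A missing circle means that the family has no such ratio in cdk1-as1.

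The difference between the strains was then described for the family. The log2 of the FPKM in cdk1-as1 divided by that in WT was −2.20 for tN(GUU)F and tN(GUU)L, which is 21.7% of the WT level, and −1.48 for each of the 8 plus strand genes, which is 35.7%. All 10 genes were lower in cdk1-as1 (10 of 10, beside 91.1% of the 191 nuclear tRNA genes with both values), and all 10 were more than 2-fold lower (beside 67.0%). These 10 genes give only 2 values, so that the counts do not stand for 10 measurements. The median of the 10 genes, −1.48, is the value of the plus strand copies. It equals the median of the 191 genes because these include the 10, and the middle gene is a plus strand copy. Without the asparagine genes the median was −1.51.

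Counts show how little signal these ratios rest on. The intervals that follow belong to count ratios and do not give the precision of the FPKM ratios. The 2 minus strand genes summed to 28.4 counts in cdk1-as1 (95% exact Poisson interval of the rounded count 18.6 to 40.5), against 95.6 in WT (77.8 to 117). Their log2 count ratio was −1.75 (95% exact binomial interval −2.44 to −1.16). The 8 plus strand genes summed to 1.35 counts in cdk1-as1 (0.0253 to 5.57), against 11.0 in WT (5.49 to 19.7), with a log2 count ratio of −3.03 (−8.89 to −0.68). The intervals of both ratios lie below 0 and overlap each other. Equal count totals of the 2 libraries add 0.91 to each ratio. That takes the upper end of the plus strand interval above 0, but not that of the minus strand interval. In FPKM the minus strand copies were the further below WT, and in counts the plus strand copies were. FPKM was not in proportion to the count in the plus strand copies. The total count that FPKM and gene length imply was 856 in cdk1-as1 and 2491 in WT for those copies, while for genes with at least 10 counts its median was 4634 in cdk1-as1 and 3579 in WT. For the minus strand copies it was 4749 in cdk1-as1 and 3474 in WT. Counting error is all that these intervals cover, and they assume that an estimated count stands for a sequenced fragment.

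Added up, the 10 asparagine genes had 102176 FPKM in cdk1-as1 and 431698 FPKM in WT, which is 23.7% of WT and a log2 ratio of −2.08. Their counts summed to 29.8 in cdk1-as1 (20.2 to 42.8), against 107 in WT (87.7 to 129), a log2 ratio of −1.84 (−2.47 to −1.24). Over all 252 listed genes the counts summed to 1570 in cdk1-as1 and 2952 in WT. The total FPKM of both libraries was also made equal, which adds 1.27 to each log2 ratio. This takes out the difference in totals, in which genes with high FPKM weigh most, and not all that the genes share. The asparagine sum then lay at −0.81, the minus strand copies at −0.93 and the plus strand copies at −0.22. All 10 genes then still lay below 0, beside 63.4% of the 191 genes. With the log2 ratios centered on the median ratio of the nuclear genes instead, the 2 minus strand genes lay below 0, at −0.72. The 8 plus strand genes lay at 0, since that median is their own value.

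The asparagine genes held a smaller share of the tRNA signal in cdk1-as1 than in WT. They are 4.18% of the listed nuclear genes and held 2.39% of the nuclear FPKM in cdk1-as1, against 4.25% in WT. Of the nuclear counts they held 1.98% in cdk1-as1 (95% Clopper-Pearson interval 1.35 to 2.83%), against 3.69% in WT (3.05 to 4.46%), and the intervals do not overlap. A smaller share was not particular to them. The aspartate genes held 1.66% of the nuclear counts in cdk1-as1 and 4.63% in WT, and the tyrosine genes 10.8% and 8.47%. The summed counts of the 229 other nuclear genes had a log2 ratio of −0.91 (−1.01 to −0.82), above the interval of the asparagine genes. The summed FPKM of those genes had a log2 ratio of −1.22. Of the other genes, the 175 without an intron lay at −1.01 in counts (−1.14 to −0.88) and the 54 with an intron at −0.82 (−0.95 to −0.69). Genes with high counts weigh most in these sums. Among those without an intron, the glutamate genes tE(CUC)I (142 counts in cdk1-as1 and 230 in WT) and tE(UUC)M (144 and 152) were nearer to WT than the sum. The 15 aspartate genes, also without an intron, were further from it, at −2.42 (−3.10 to −1.80). The sum thus does not stand for each gene without an intron. Medians over genes depended on which copies were counted. The median log2 FPKM ratio was −1.51 over the other nuclear genes and −1.67 over those without an intron, so that the asparagine median, which is the value of the plus strand copies, lay 0.02 and 0.19 above them. With identical copies counted as 1, it lay at −0.58 and −0.20 relative to them. Among genes on the same strand, the asparagine median minus that of the other nuclear genes was −0.69 on the minus strand (median of the others −1.51) and −0.23 on the plus strand (median of the others −1.26).

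**Figure D3:**
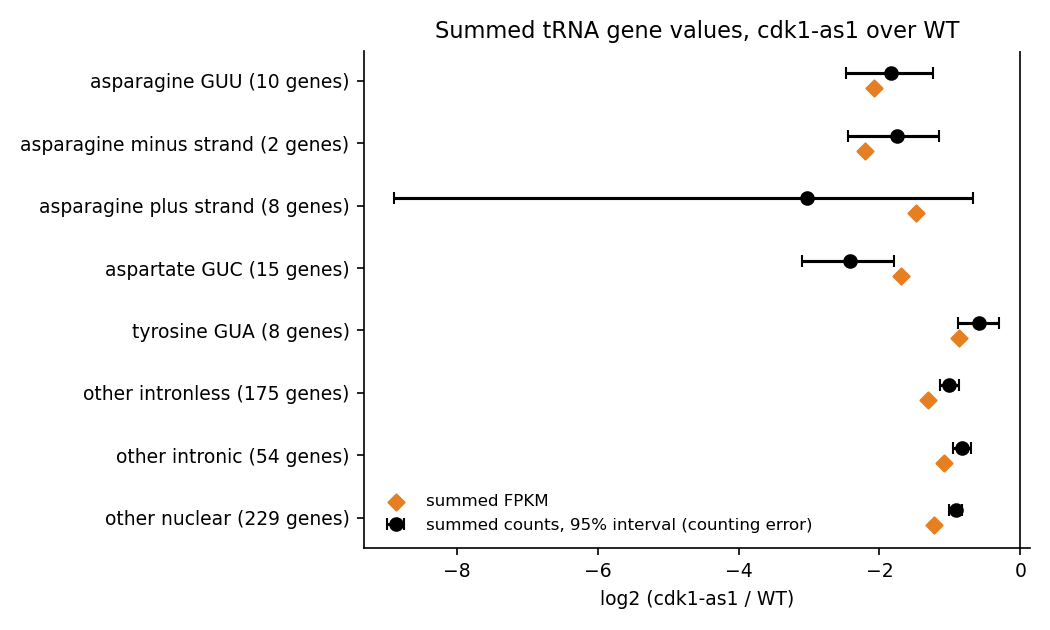
The log2 ratio of cdk1-as1 to WT for summed counts (circles, with 95% exact binomial intervals for counting error) and summed FPKM (diamonds). The asparagine genes lie at −1.84 in counts and −2.08 in FPKM, and the 229 other nuclear genes at −0.91 and −1.22.

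Of the other tRNAs whose anticodon starts with GU, aspartate and tyrosine had values in both strains. The 15 aspartate genes are, like the asparagine genes, identical intronless copies on both strands, and they too held 1 value per strand, with the plus strand copies the higher. Their counts summed to 25.0 in cdk1-as1 and 134 in WT, a log2 ratio of −2.42 (−3.10 to −1.80), whose interval overlaps that of the asparagine genes. In FPKM the aspartate copies lay at −1.67 on the minus strand and −1.70 on the plus strand, closer together than the asparagine copies at −2.20 and −1.48. The 8 tyrosine genes, which have introns, were nearer to WT. They summed to 163 counts in cdk1-as1 and 245 in WT, a log2 ratio of −0.59 (−0.88 to −0.30), and that interval lies above those of the asparagine and aspartate genes. All 3 histidine genes had a value in WT only, where they summed to 9.47 counts. Whether these tRNAs differ in their response beyond counting error could not be tested with 1 library per strain.

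Some other genes had values close to those of the asparagine copies, by distance in log2 FPKM of both libraries. Nearest to the plus strand copies were the serine gene tS(AGA)D2 and 6 copies (2868 FPKM in cdk1-as1 and 7357 in WT), the aspartate gene tD(GUC)I1 and 4 copies (2856 and 9118) and the leucine gene tL(CAA)C and 4 copies (3399 and 5130), at distances of 0.11, 0.31 and 0.64. Each of these copies had at most 2.28 counts in either library. Nearest to the minus strand copies were the tyrosine gene tY(GUA)D and 1 copy (61252 FPKM in cdk1-as1 and 150214 in WT), the serine gene tS(UGA)E (32259 and 122536) and the proline gene tP(UGG)H (41271 and 114944), at distances of 0.67, 0.68 and 0.70. These likenesses rest on 2 libraries and are a description.

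**Figure D4:**
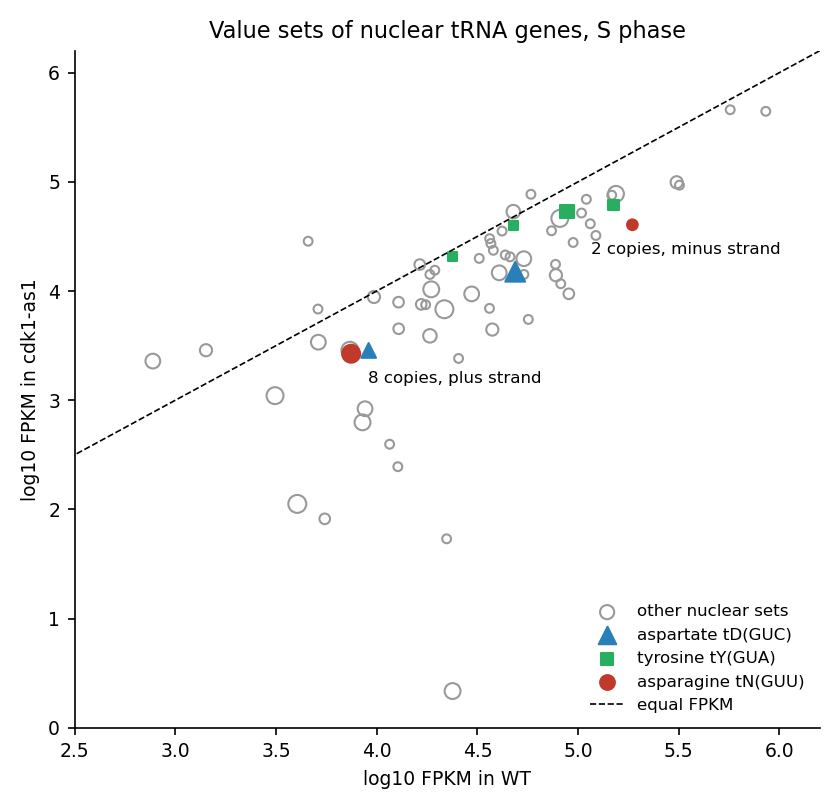
FPKM in cdk1-as1 against FPKM in WT on log10 axes for the 68 distinct values of nuclear tRNA genes present in both strains, with symbol size growing with the number of copies and the dashed line marking equal FPKM. Both asparagine values (filled circles) lie below the line, the 2 minus strand copies near the top of the WT range and the 8 plus strand copies near those of an aspartate set.

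The mitochondrial asparagine gene tN(GUU)Q encodes another RNA and is not among the 10. It had 16767 FPKM at 2.09 counts in WT and no value in cdk1-as1.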

How the data were processed

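Small RNA was purified with a miRNA kit and sequenced as paired-end reads. The study's methods name the Ensembl R64 genome with its gene models, and ERCC spike-in RNA for normalization. The sources used here name no aligner or counting program and do not say how the standards entered the columns. The authors deposited, for each library, an estimated count (expected count, not whole) and an FPKM value per tRNA gene, and a side-by-side table of RPKM values in which 0.1 stands for an absent gene. That table also holds the authors' fold change and FDR columns, which were not used.

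All 239 nuclear genes were found by their positions in the RefSeq annotation of R64. The bases after 1 gene are not reported here. Values were called equal within a relative tolerance of 1e-06. Log2 ratios were taken with no pseudocount. Intervals are exact, at 95%, on rounded counts, and no other test was possible. Alternatives were pseudocounts of 1, 100 and 1000, equal totals, and log2 ratios centered on the median ratio of the nuclear genes. Others were minimums of 10000 FPKM or 10 counts, copies counted as 1, counts in place of FPKM, and the side-by-side table. The interval code was tested on simulated data. Genes named are the asparagine genes, the tRNAs with a GUN anticodon and the 3 value sets nearest to each asparagine set. The glutamate genes tE(CUC)I and tE(UUC)M were named for their high counts. Members, lists and rules were chosen with earlier results of these data known. Python 3.11.15, pandas 2.3.3 and SciPy 1.17.1 were used.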

Additional observations from a re-analysis of the deposited data

How the results depend on the processing

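Pseudocounts up to 1000 moved neither the log2 ratios of the 2 asparagine values nor the median of the 10 genes by more than the reach of the counting interval. For the plus strand copies that reach, 4.11, was so wide that no setting counted as a move. The pseudocount of 1000 took their ratio to −1.21. The side-by-side table gave the same ratios. Equal totals of FPKM moved the ratio of the minus strand copies to −0.93, the median of the 10 genes to −0.22 and the sum to −0.81, and equal count totals moved the count ratio to −0.93. Log2 ratios centered on the median ratio of the nuclear genes gave −0.72, 0 and −0.59, and 2 genes then lay below 0. The plus strand copies are themselves at that median, so their place at 0 was fixed in advance. Minimums of 10000 FPKM and of 10 counts kept only the minus strand genes (2 lower, median −2.20). With copies counted as 1 there were 2 values, both lower. In counts the median was −3.03. The median difference from the other nuclear genes, 0.02 as deposited, became −0.58 with copies counted as 1, −0.75 and −0.91 at the minimums of FPKM and counts, and −0.69 and −0.23 within the minus and the plus strand, the strands having been separated after the data were seen. From the other genes without an intron, 0.19 as deposited, it was −0.20, −0.55, −0.65 and −0.54 on the minus strand, but 0.21 on the plus strand. From the other tRNAs with a GUN anticodon, 0.19 as deposited, it was −0.84, −0.50, −0.50 and −0.53 on the minus strand, and again 0.21 on the plus strand. These differences rest on which copies are counted. Depth limits most the plus strand copies, at 1.35 summed counts in cdk1-as1. No paired analysis was possible because each strain has 1 library.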
